A study of Mus musculus with 2 samples.

Results

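Epithelial cells of the mammary gland release proteins that kill microbes, hold back proteases or keep iron from bacteria, and 10 genes of this kind were examined: Trf, Ltf, Lcn2, Defb1, Slpi, Wfdc18, Lyz2, S100a8, S100a9 and Pigr. They were selected by name with the values of both libraries already known, so their levels and ratios are a description and carry no test. Of the 10 genes, 9 have a row among the 16906 genes of the deposited table, and S100a9 is not analysed here. RNA was sequenced in bulk from luminal cells, the inner epithelial layer of the mammary ducts, enriched by flow sorting. Control RNA (Ctrl, 1 library) came from mice of the genotype miR-200c/141-flox/flox. Knockout RNA (CKO, 1 library) came from K8-CreERT2;miR-200c/141-flox/flox mice. Both groups were C57BL/6 mice aged 8 weeks, both carried the floxed alleles of the microRNA cluster, and both received tamoxifen. Only CKO carried the Cre recombinase, which is driven by the keratin 8 promoter of luminal cells and activated by tamoxifen, so an effect of Cre cannot be told apart from an effect of the deletion. The labels place the harvest 4 weeks after tamoxifen in one field and 3 days after it in another. About 20000 cells were sorted per library, from a number of mice that the labels leave out. There was no replicate, so no difference here was compared with the spread between animals.

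The proteins fall into a few working types. Transferrin (Trf) and lactoferrin (Ltf) bind ferric iron directly, whereas lipocalin 2 (Lcn2) captures the siderophores with which bacteria collect it. Beta-defensin 1 (Defb1) is a small cationic peptide that damages bacterial membranes, lysozyme 2 (Lyz2) cuts bacterial cell walls, and S100a8 forms with S100a9 the metal-binding complex calprotectin. Slpi inhibits the elastase of neutrophils and shares the WAP four-disulfide core fold with Wfdc18, and Pigr carries polymeric immunoglobulins across the epithelium. Ltf, Trf, Lcn2 and Pigr products are known components of mouse milk and of glandular fluids.

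The deleted cluster encodes the mature microRNAs below, shown because their seed, the part that pairs with target transcripts, was searched for in the 10 genes. The sequences are from RefSeq on GRCm38.p6, written 5′ to 3′ with the seed (bases 2 to 8) in capitals, and both lie on the minus strand, at chr6:124718324-124718346 for miR-200c-3p and chr6:124717917-124717938 for miR-141-3p.

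mmu-miR-200c-3p: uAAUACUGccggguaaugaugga

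mmu-miR-141-3p: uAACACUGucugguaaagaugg

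The seeds differ at 1 base and match the DNA 7-mers CAGTATT and CAGTGTT. Neither 7-mer was present in the longest annotated 3′ UTR of any of the 10 genes, in the GENCODE M21 annotation. These UTRs are 68 to 1353 bases long, and all but that of Pigr, the longest, have at most 790 bases. Among 11151 measured genes with an annotated 3′ UTR, whose median length was 1166 bases, 15.4% held the first 7-mer, 20.8% the second and 30.1% at least 1 of them. All but 1 of the UTRs searched were shorter than that median, and these shares are not matched for length. No match says only that these letters are not in these stretches.

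Levels are given as FPKM, fragments per transcript kilobase and library size, a scale on which genes of different length can be compared. Ratios are CKO over Ctrl on the scale log2(FPKM + 0.5). Each ratio carries a 95% exact interval of the read ratio (Clopper-Pearson), based on library totals estimated from the deposited p-values, about 12600000 reads for Ctrl and 11500000 for CKO. PCR copies are not separate molecules, so these intervals describe the error of counting alone. Of 9 luminal marker genes, 9 were measured, led by the keratin genes Krt18 (6606.79 FPKM in Ctrl and 10398.36 in CKO) and Krt8 (3871.08 and 4476.23). The microRNA genes themselves are not analysed here, so the deletion was not checked. In bulk RNA, a lower level in every cell and a smaller share of producing cells cannot be told apart.

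**Figure D1:**
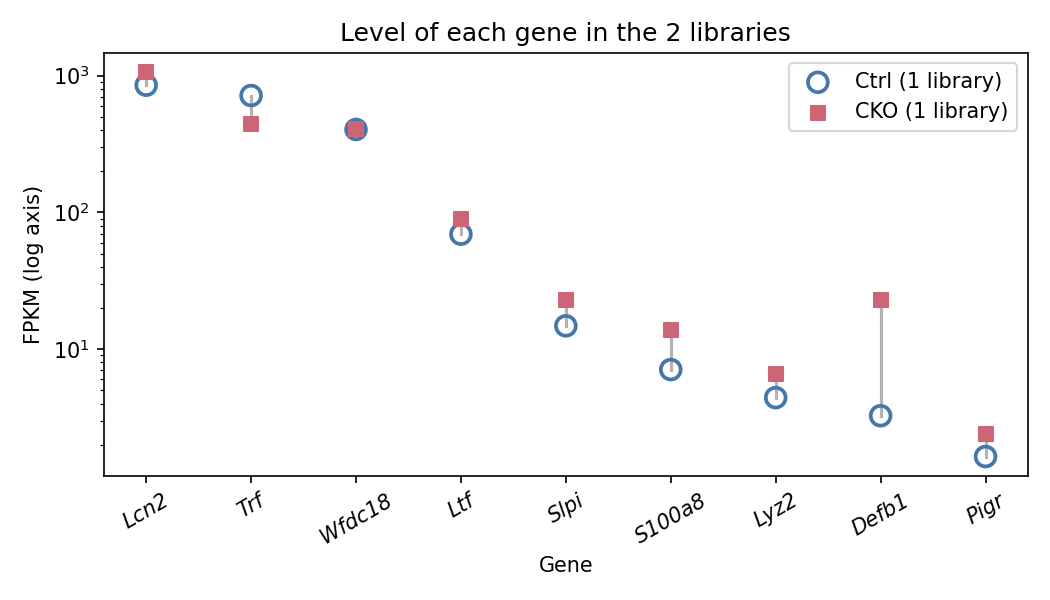
Level of each of the 9 genes with a row, in FPKM on a log axis, in the Ctrl library (open circles) and the CKO library (filled squares), 1 library each. The genes span from 1.64 FPKM (Pigr, Ctrl) to 1059.54 FPKM (Lcn2, CKO); the circle and the square lie farthest apart for Defb1.

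The levels covered a wide range, and 3 genes dominated. Lcn2 ranked first among the 9 in both libraries, Trf next and Wfdc18 after it. Together these 3 held 95.15% of the summed FPKM of the 9 genes in Ctrl and 92.38% in CKO. Ltf came next in both libraries, followed by Slpi. Below Slpi, the order in Ctrl was S100a8, Lyz2, Defb1 and Pigr. In CKO it was Defb1, S100a8, Lyz2 and Pigr. Defb1 at 22.78 FPKM (95% exact Poisson interval 20.03 to 25.83, counting error only) and Slpi at 22.98 FPKM (20.15 to 26.1) were not separable by counting error in CKO. In Ctrl, the interval of Lyz2 (3.37 to 5.71 FPKM) overlapped those of its neighbours S100a8 (4.94 to 9.86 FPKM) and Defb1 (2.29 to 4.44 FPKM), while the intervals of S100a8 and Defb1 did not overlap each other.

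Of the iron-handling proteins, Trf was lower in the CKO library while Ltf and Lcn2 were higher. Trf (Entrez gene 22041, chromosome 9 at 103208876 to 103230286 of GRCm38) stood at 715.71 FPKM in Ctrl and 444.01 FPKM in CKO. Among all genes of the table it ranked 101 in Ctrl and 156 in CKO. Trf was thus among the abundant transcripts of both libraries, and lower in CKO. Its log2 ratio was -0.69 (interval -0.72 to -0.66), which is 1.61-fold lower, from about 21030 and 11943 reads. The GENCODE locus Gm20425 overlaps Trf on the same strand, so some of these reads could belong to either. The authors' deposited table lists a p-value of 0 for Trf, from a test that sets the reads of both libraries against each other. That table does not call Trf up or down, and the ratio is under 2-fold.

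Ltf, the relative of Trf that occurs at mucosal surfaces and in neutrophil granules (Entrez gene 17002, chromosome 9 at 111019292 to 111042766), stood at 69.31 FPKM in Ctrl and 89.24 FPKM in CKO. This is a log2 ratio of 0.36 (0.29 to 0.44), or 1.29-fold, with about 2395 and 2822 reads. Trf and Ltf encode proteins of the same family on the same chromosome, yet their ratios had opposite signs. The level of Trf relative to that of Ltf was 10.3 in Ctrl and 4.98 in CKO.

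Lcn2 (Entrez gene 16819, chromosome 2 at 32384637 to 32387739) stood at 851.63 FPKM in Ctrl and 1059.54 FPKM in CKO, ranks 84 and 70 of all genes. Its log2 ratio of 0.31 (0.27 to 0.36) is a 1.24-fold difference, and at about 9153 and 10425 reads its interval is narrow. Lcn2 was slightly more abundant than Trf in Ctrl and clearly so in CKO: the ratio of their levels was 1.19 in Ctrl and 2.39 in CKO.

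The peptide Defb1 had the highest ratio of the 9 genes. Defb1 (Entrez gene 13214, chromosome 8 at 21776555 to 21795185) stood at 3.26 FPKM in Ctrl and 22.78 FPKM in CKO. It ranked 9685 of all genes in Ctrl and 3606 in CKO, so a weakly detected transcript in one library was moderately expressed in the other. The log2 ratio of Defb1 was 2.63 (2.32 to 3.35), which is 6.19-fold higher, with about 38 and 245 reads. The authors' deposited table gives Defb1 a false discovery rate of 5.37e-39 and calls it up, the only 1 of the 9 genes so called.

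The WAP-fold protease inhibitors behaved differently from each other. Slpi (Entrez gene 20568, chromosome 2 at 164354070 to 164356507) stood at 14.81 FPKM in Ctrl and 22.98 FPKM in CKO. Its log2 ratio was 0.62 (0.34 to 0.93), 1.53-fold higher, from about 167 and 237 reads, and it moved below 1.5-fold when the values were rescaled to the same total in both libraries after division by length (TPM), at a log2 ratio of 0.54. Slpi is therefore close to the threshold used for counting here. Wfdc18 (Entrez gene 14038, chromosome 11 at 83709004 to 83711360), an abundant WAP protein gene, stood at 404.33 FPKM in Ctrl and 409.01 FPKM in CKO. Its log2 ratio of 0.02 (-0.06 to 0.09) had an interval that held a ratio of 1, from about 2889 and 2675 reads.

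Among the genes that myeloid cells also express, S100a8 and Lyz2 were weakly expressed and higher in CKO. S100a8 (Entrez gene 20201, chromosome 3 at 90669071 to 90670034) stood at 7.09 FPKM in Ctrl and 13.79 FPKM in CKO. The log2 ratio of S100a8 was 0.91 (0.33 to 1.59), which is 1.88-fold higher, from about 35 and 62 reads. Resting on so few reads, S100a8 had the widest interval of the 9 genes. Lyz2 (Entrez gene 17105, chromosome 10 at 117277541 to 117282272) stood at 4.42 FPKM in Ctrl and 6.57 FPKM in CKO. This gave a log2 ratio of 0.52 (0.06 to 1.08), from about 59 and 80 reads. Lyz1, a near-identical copy of Lyz2, was listed at 0.37 and 0.63 FPKM, and the split of reads between these copies is uncertain.

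S100a8 and Lyz2 are also strong markers of neutrophils and macrophages, so the markers of those cells were read beside them. Of 18 listed neutrophil markers, 10 had a row, and their summed level was 3.83 FPKM in Ctrl and 3.94 FPKM in CKO. Stfa1, a stefin gene of neutrophils, had 0 reads in Ctrl and 6 in CKO (1.16 FPKM), with an interval that excluded a ratio of 1, so it was higher in CKO as S100a8 was. Camp and Chil3 had 0 reads in Ctrl and 1 each in CKO, and Ly6g, the antigen that defines mouse neutrophils, had 1 read in Ctrl and 0 in CKO. The neutrophil chemokine receptor gene Cxcr2 was the only 1 with a mean of at least 1 FPKM, at 2.52 and 1.5 FPKM, so the near-equal sums join a higher Stfa1 and a lower Cxcr2. Most neutrophil markers were at or near 0 in both libraries, and together the 10 had 132 reads in Ctrl and 87 in CKO. Of 17 macrophage and monocyte markers, 6 were measured, with 0 higher and 0 lower, and the list summed to 18.76 and 18.75 FPKM. The lysosomal macrophage gene Cd68 was at 8.49 and 9.97 FPKM, and the Fc receptor gene Fcgr1 had 0 reads in Ctrl and 1 in CKO. C1qa had 12 reads in Ctrl and 22 in CKO, whereas C1qb had 23 and 16 and C1qc had 18 and 7. The near-equal sums of this list thus join ratios of both signs. The part of these cells in the ratios of S100a8 and Lyz2, or in that of Ltf, was not tested.

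Pigr, the immunoglobulin transporter (Entrez gene 18703, chromosome 1 at 130826684 to 130852249), was the least abundant of the 9. It stood at 1.64 FPKM in Ctrl and 2.4 FPKM in CKO. Its log2 ratio was 0.44 (0.12 to 0.98), from about 80 and 107 reads. Jchain, which encodes the joining chain that Pigr binds on polymeric immunoglobulins had 1.21 and 0.39 FPKM from 32 and 9 reads. It was named after its values were seen. Of 7 listed plasma cell markers, 3 had a row and 0 were measured, and they summed to 1.69 and 1.41 FPKM. These sums join a lower Jchain with higher Derl3 (0.27 and 0.54 FPKM) and Mzb1 (0.21 and 0.48 FPKM).

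**Figure D2:**
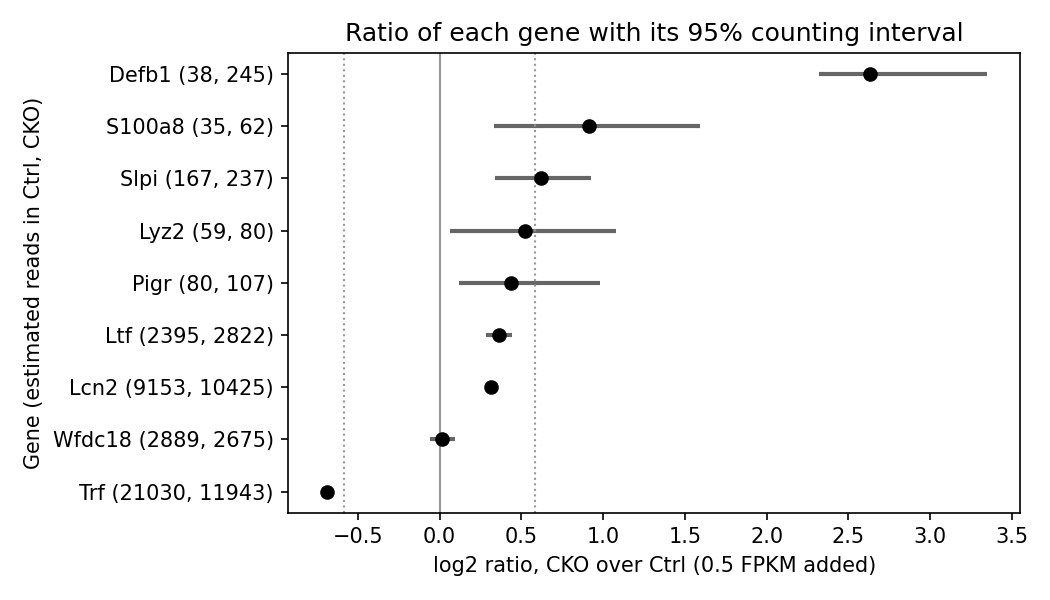
Log2 ratio, CKO over Ctrl on the FPKM + 0.5 scale, of the 9 genes (points), with the 95% exact interval of the read ratio (bars, counting error only); dotted lines mark 1.5-fold. Trf at -0.69 is the only point below 0, Wfdc18 at 0.02 has an interval across 0, and Defb1 at 2.63 lies far to the right.

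Counting the 9 measured genes, 3 were higher in CKO by 1.5-fold or more (Defb1, S100a8 and Slpi) and 1 was lower by as much (Trf). Over the 11667 genes with a mean of at least 1 FPKM, 2.47% were higher by 1.5-fold or more, and 3.15% were lower by as much. With the added condition that the interval excluded a ratio of 1, the 9 genes gave the same 3 and 1, and over all measured genes the shares were 2.28% and 3.03%. In the authors' deposited table, the calls did not follow the false discovery rate alone. Trf and Lcn2 were uncalled with rates below that of Defb1. Ltf, also uncalled, had a lower rate than Slpi, S100a8, Pigr, Lyz2 and Wfdc18. At 2-fold, 1 of the 9 (Defb1) was higher and 0 were lower, against 0.754% and 0.557% over all measured genes. These shares cannot be read as evidence about the 9 genes, since those were chosen on the same values. The sign of the log2 ratio was above 0 for 8 of 9 on the FPKM scale and for 7 of 9 under TPM, where Wfdc18 was at -0.06. The median log2 ratio of the 9 genes was 0.44, that over all measured genes was -0.03, and 95% of all measured genes lay between -0.62 and 0.58.

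**Figure D3:**
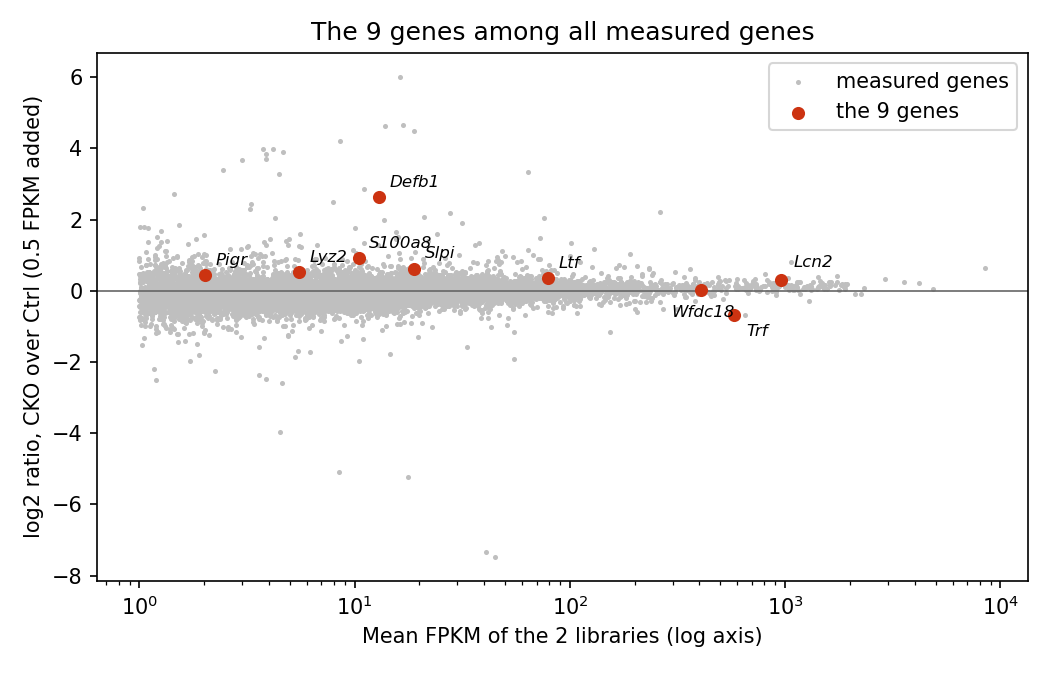
Log2 ratio, CKO over Ctrl, against the mean level of the 2 libraries (FPKM on a log axis) for all 11667 measured genes (grey) and the 9 genes (red, named). The 9 genes were chosen on such values; Trf, Lcn2 and Wfdc18 lie at the high end of the level axis and Defb1, at 2.63, above most grey points of its level.

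The summed level of the 9 genes per transcript length was nearly the same in both libraries, at 2072.2 FPKM in Ctrl and 2070.32 FPKM in CKO, but the summed reads were lower in CKO. Without Trf, the other 8 summed to 1356.49 and 1626.31 FPKM, a log2 ratio of summed reads of 0.30 (0.26 to 0.33). Without Trf, Lcn2 and Wfdc18, the other 6 summed to 100.53 and 157.76 FPKM. Measured in reads rather than per length, all 9 gave about 35845 in Ctrl and 28596 in CKO, of which Trf alone made up 21030 and 11943. Scaled to library size, this is a log2 ratio of summed reads of -0.20 (-0.22 to -0.18).

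**Figure D4:**
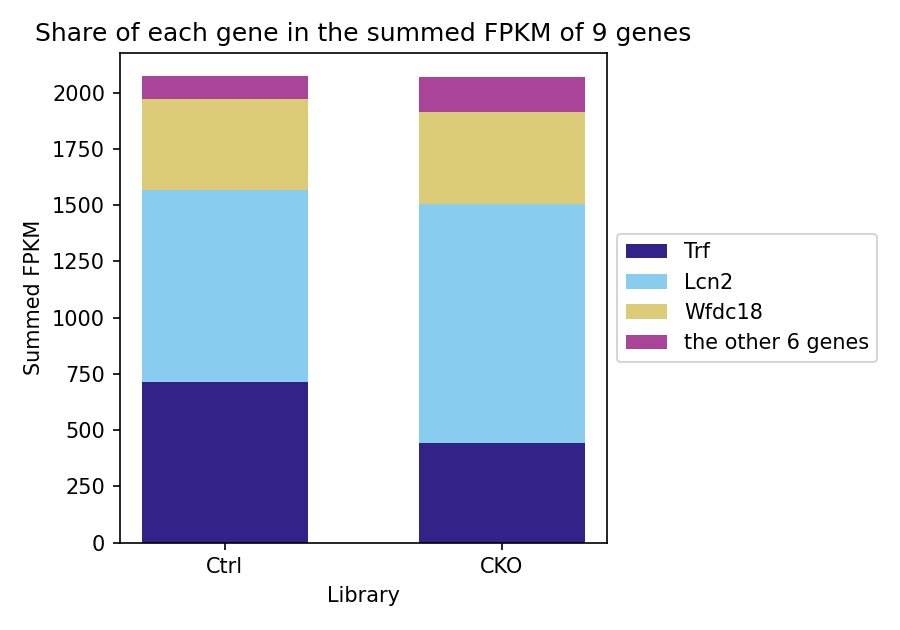
Summed level of the 9 genes in FPKM in each library, stacked as Trf, Lcn2, Wfdc18 and the other 6 genes, with bars starting at 0; 1 library per bar and no error bar. The bars reach 2072.2 FPKM in Ctrl and 2070.32 FPKM in CKO, with a smaller Trf segment and a larger Lcn2 segment in CKO.

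The families of these proteins were next read gene by gene. In the WAP family, 9 genes had a row and 7 were measured, with 1 higher (Slpi) and 1 lower, the milk whey protein gene Wap at 6.9 and 0.82 FPKM, and a family median of 0.06. Under TPM 0 members of this family were counted as higher and 2 as lower. Lists and families count a gene at 1.5-fold with an interval that excludes a ratio of 1, which 2.28% of all measured genes met as higher and 3.03% as lower. Wfdc2, a WAP gene of epithelial secretions, was at 357.25 and 371.19 FPKM. Of 10 beta-defensin genes with a row, 3 were measured and Defb1 was the only 1 counted as higher. Defb29 was at 1.5 and 2.57 FPKM with 8 and 12 reads, and Defb45 at 1.34 and 1.47 FPKM with 7 reads in each library.

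Calcium-binding proteins of the S100 family were matched by a symbol pattern, which gave 16 genes with a row and 12 measured, with 2 higher and 0 lower and a median log2 ratio of 0.32. The pattern takes in S100pbp, a binding protein outside the family, and misses S100a7a (0.67 and 1.31 FPKM). With these corrected, a change made after the data were seen, 11 were measured, again with 2 higher and 0 lower, and the median was 0.33. The higher ones were S100a8 and S100a13, which takes part in the non-classical release of growth factors. S100a13 had 34.59 and 54.59 FPKM, which gives a log2 ratio of 0.65 (0.45 to 0.87), and under TPM it was no longer counted, leaving 1 higher. The abundant members were S100a11 (1094.55 and 1169.39 FPKM), S100a6 (645.33 and 809.73 FPKM) and S100a10 (339.27 and 420.21 FPKM), so S100a8 was a minor member by level. In the transferrin family, Mfi2, which encodes a membrane-anchored transferrin relative, was at 3.87 and 3.62 FPKM, beside Trf and Ltf. In the lipocalin family, 8 genes had a row and 2 were measured. Of these, Apod, an apolipoprotein gene of that fold, was counted as higher at 3.56 and 6.99 FPKM (log2 ratio 0.88, interval 0.60 to 1.35) and Lcn2 was not. In the lysozyme family, Lyzl4 was at 5.01 and 5.96 FPKM.

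Other secreted defence proteins were mostly near a ratio of 1. Of 25 listed, 17 were measured, and 1 was higher and 0 lower with a median log2 ratio of 0.10. The higher one was Pglyrp1, a peptidoglycan-binding bactericidal protein gene, at 2.32 and 5.07 FPKM (log2 ratio 0.98, interval 0.32 to 1.98), from 20 and 40 reads. The 3 most abundant were the endotoxin receptor gene Cd14 at 400.62 and 467.65 FPKM, Wfdc2 with the values given above, and the chitinase-like gene Chil1 at 163.13 and 159.66 FPKM.

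No gene of iron uptake, storage and export passed 1.5-fold beside Trf. Of 25 listed, 23 were measured with 0 higher and 0 lower, and the median was 0.00 on the FPKM scale and -0.07 under TPM. On the FPKM scale 12 log2 ratios were above 0 and 11 below. Short of 1.5-fold, Heph (log2 ratio -0.46), Steap3 (-0.43), Hmox1 (-0.35) and Cp (-0.22) had intervals below a ratio of 1. Slc25a28 (0.25) and Fth1 (0.13) had intervals above it. The iron storage subunit genes Ftl1 and Fth1 were at 909.12 and 897.27 FPKM and at 755.35 and 826.47 FPKM. Pcbp2, which encodes an iron chaperone that also binds RNA, was at 195.46 and 196.96 FPKM. The transferrin receptor gene Tfrc, also named with its values known, had 6.85 and 6.45 FPKM.

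No measured receptor, ligand or protein partner of the 9 genes passed 1.5-fold. Of 14 listed, 12 had a row and 8 were measured, with 0 higher and 0 lower and a median log2 ratio of 0.09. This median joins 4 ratios above 0 and 4 below, among them Cd36 at 0.50 (0.27 to 0.82) and Lrp1 at -0.38 (-0.50 to -0.31). Anxa2, which encodes a membrane annexin, was at 677.54 and 779.28 FPKM. Bsg, which encodes a surface receptor of S100a9, was at 399.68 and 396.24 FPKM. Plscr1, whose product binds Slpi, was at 31.43 and 42.83 FPKM.

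Among signals and transcription factors that can induce such proteins, 33 were listed and 32 measured, with 2 higher, 1 lower and a median log2 ratio of 0.06. Cebpd, the acute-phase transcription factor gene of the C/EBP family, was at 156.0 FPKM in Ctrl and 254.92 FPKM in CKO, a log2 ratio of 0.71 (0.65 to 0.76). Lif, which encodes a cytokine that signals through Stat3 in the gland, had 47.36 and 72.08 FPKM and a log2 ratio of 0.60 (0.53 to 0.68), and it was not counted under TPM. Its receptor gene Lifr was the lower one, at 17.2 and 10.7 FPKM, a log2 ratio of -0.66 (-0.81 to -0.57). Lifr was not counted when the read ratio implied by the p-value in the authors' deposited table was used. The NF-κB inhibitor gene Nfkbia, itself a target of NF-κB, was at 292.75 and 381.55 FPKM, and Cebpb at 241.14 and 284.09 FPKM.

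**Figure D5:**
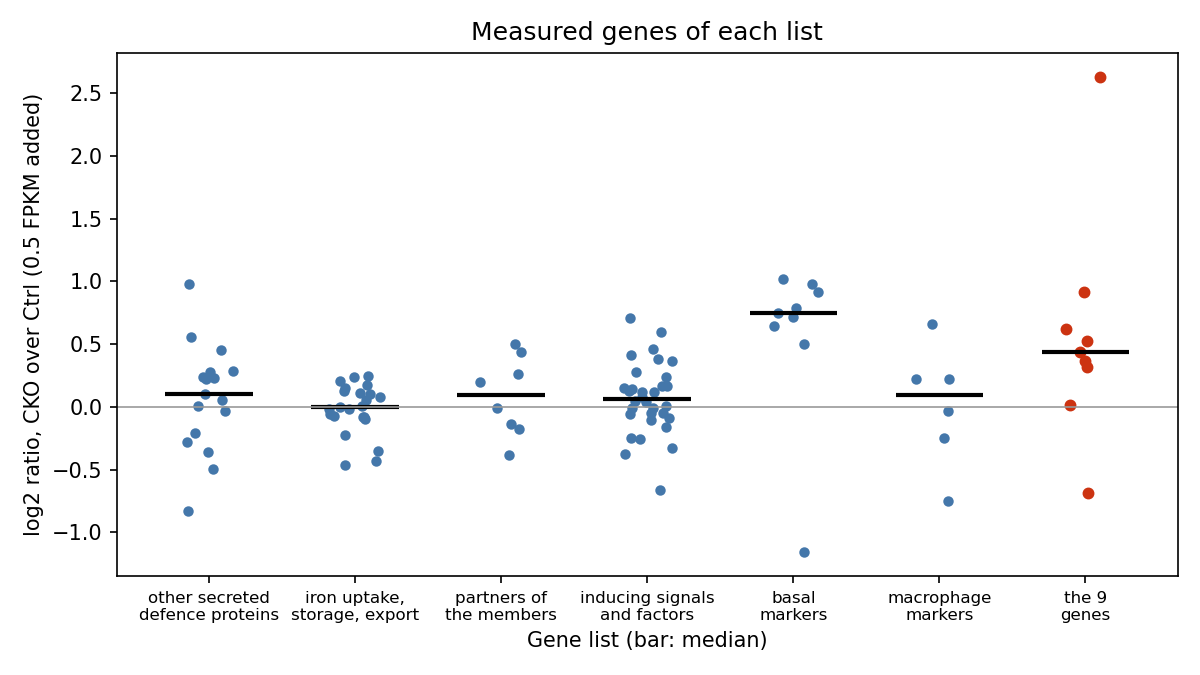
Log2 ratio, CKO over Ctrl on the FPKM + 0.5 scale, of every measured gene (points) in 4 lists related to the 9 genes, in basal and macrophage markers, and in the 9 genes (red), with each median as a horizontal bar. The medians are 0.10, 0.00, 0.09 and 0.06 for the 4 lists, 0.75 for basal markers, 0.09 for macrophage markers and 0.44 for the 9 genes, which were chosen on these values.

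RefSeq promoter windows, from 250 bases before to 50 after the start of transcription on GRCm38.p6, were matched for 8 of the 10 genes, all but Defb1 and Trf. The C/EBP motif was searched as TTNNGNAAT on both strands and was found in 3 of 8 windows (Slpi, Ltf and S100a9), against 11.6% of 27025 promoters. The STAT motif TTCNNNGAA was found in 1 of 8 (Pigr), against 8.47%, and the NF-κB motif, by name, in 0 of 8, against 8.18%. The TATA box sequence TATAAA was found in 3 of 8 (S100a8, S100a9 and Wfdc18), against 14.2%. It began 30 bases before the start in S100a8 and 31 in Wfdc18, but at the start itself in S100a9. A match is a description of the sequence and not a binding site. The Slpi and Ltf windows are shown because they hold the C/EBP matches among the genes with a value. The 250 bases before the start are printed with each motif match in capitals. Slpi lies on the minus strand (chr2:164356508-164356757) and Ltf on the plus strand (chr9:111019042-111019291).

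Slpi: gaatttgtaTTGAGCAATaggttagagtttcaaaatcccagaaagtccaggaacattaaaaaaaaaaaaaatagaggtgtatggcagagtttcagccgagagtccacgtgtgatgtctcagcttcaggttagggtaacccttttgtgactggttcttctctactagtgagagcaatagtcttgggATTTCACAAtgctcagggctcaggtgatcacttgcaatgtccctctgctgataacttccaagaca

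Ltf: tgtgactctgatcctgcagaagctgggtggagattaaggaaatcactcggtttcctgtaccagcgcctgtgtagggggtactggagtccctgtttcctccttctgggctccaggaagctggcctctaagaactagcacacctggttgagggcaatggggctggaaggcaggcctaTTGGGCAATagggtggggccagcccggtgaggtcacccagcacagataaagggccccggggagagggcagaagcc

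The Slpi window held 2 matches, beginning 241 and 65 bases before the start, and the Ltf window held 1, beginning 75 bases before it. Genes with a window and no C/EBP match included S100a8, at 1.88-fold in CKO over Ctrl, Lyz2 at 1.44-fold, Pigr at 1.36-fold, Lcn2 at 1.24-fold and Wfdc18 at 1.01-fold, beside Slpi at 1.53-fold and Ltf at 1.29-fold with a match. Defb1 and Trf, which had the highest and the lowest ratio, have no window and are not among these. A part of C/EBP factors in the ratios was not tested.

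Markers of other cells were read over all lists because the sort could carry them. Basal myoepithelial markers were mostly higher in CKO, with 7 of 9 measured higher and 1 lower. Their median was 0.75 and their sum 160.64 FPKM in Ctrl and 293.55 FPKM in CKO. The lower one was Trp63, at 2.96 and 1.05 FPKM, a log2 ratio of -1.16 (-1.96 to -1.04), from 166 and 54 reads. Under TPM 6 basal markers were counted as higher and 1 as lower. Of 7 measured milk secretion genes 1 was higher and 4 were lower, with a median of -0.62. General luminal markers, 9 measured, had 1 higher (Krt18) and 0 lower, with 8 log2 ratios above 0. Their median was 0.14 and their sums 16425.1 FPKM in Ctrl and 21119.78 FPKM in CKO. Under TPM 0 luminal markers were counted as higher. Luminal progenitor and alveolar markers, 8 measured, had 0 higher and 1 lower, and hormone-sensing luminal markers, 9 measured, 1 higher and 1 lower. The part of these cell types in the ratios of the 9 genes was not tested. Lymphocyte markers summed to 1.82 and 1.39 FPKM, fibroblast markers to 40.29 and 42.56 FPKM, endothelial markers to 31.43 and 34.15 FPKM, adipocyte markers to 0.53 and 0.15 FPKM and erythroid markers to 7.95 and 8.64 FPKM.

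The table's own gene annotation places 8 of the 9 genes in the extracellular exosome term, which 16.4% of measured genes carry, and 7 in the extracellular space term, which 4.86% carry. The antibacterial humoral response term holds Defb1, Ltf and Slpi, and 0.163% of measured genes carry it. The iron ion binding term holds Lcn2 and Ltf, and 0.497% carry it. The genes were chosen by name as secreted antimicrobial or iron-binding proteins, so their place in such terms follows from the choice.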

How the data were processed

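Bulk RNA-seq values of 2 libraries were used, 1 per group. The submitters' processing notes name HISAT, Bowtie2 and RSEM, with mm10, and versions are not given in the sources used here. The deposited table holds FPKM computed by the authors, rounded and listed at 0.01 where a gene has no reads. It also holds the authors' deposited log2 ratio, p-value and false discovery rate, the last 2 from a test of 1 library's reads against the other's, which compares libraries and not conditions. The column headers state no unit. FPKM times transcript kilobases summed to 999609 in Ctrl and 999909 in CKO, which identified it.

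From the deposited FPKM, log2((CKO + 0.5)/(Ctrl + 0.5)) was computed for every gene, with no further scaling. Total reads were estimated by fitting the deposited p-values of 8593 genes (median absolute difference 0.084 on the log10 scale). The share of CKO in all reads came from genes at the floor in Ctrl, and 95 of 96 of them gave whole reads within 0.02. That count uses the same genes as the share and is no check of the total reads. A gene's reads follow from its FPKM, its length and the estimated total of the library. The interval of the read ratio leaves out the 0.5 FPKM, so the printed ratio of a weak gene can lie off its centre. Genes with a mean of at least 1 FPKM counted as measured, and list genes counted as higher or lower at 1.5-fold with an interval that excluded a ratio of 1.

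The members and lists were chosen with earlier results of these data known. The rule for named genes took the members and the 3 measured genes of highest mean level in each list or family. It added up to 4 more past the threshold, by the interval bound nearest to 0. Of the cell type lists, some are given as counts only. Other genes were named outside this rule with their values known, such as Stfa1, Camp, Chil3, Ly6g and Fcgr1 among the cell markers. Symbols and coordinates came from RefSeq on GRCm38 and UTRs from GENCODE M21. No test across samples is possible with 1 library per group, so no p-value was computed. Alternatives were another pseudocount, level minimum or scaling, and the read ratio implied by the deposited p-value. Scripts were tested on simulated data. Python 3.11.15, numpy 2.4.6, pandas 2.3.3, scipy 1.17.1 and matplotlib 3.10.9 were used.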

Additional observations from a re-analysis of the deposited data

How the results depend on the processing

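With 1 library per group, leaving out a replicate could not be run. No paired analysis was possible because each group has 1 library and no test was made. Of the recomputed values, 165 stayed within counting error or, for counts, within 1.5 times, 7 moved, and 0 ratios past 1.5-fold turned in direction. The ratio of Wfdc18, whose interval holds a ratio of 1, did turn, from 0.02 to -0.06 under TPM. The log2 ratio of Lcn2 was 0.24 under TPM. That of Trf was -0.76 under TPM and -0.65 with the trimmed mean of all ratios set to 0. The scalings shifted all ratios by 0.01 (median set to 0), -0.08 (TPM) and 0.04 (trimmed mean). Among list counts, other secreted defence proteins had 0 higher with a minimum mean of 5 FPKM, which leaves out Pglyrp1. The protein partners had 1 lower with no minimum level, which was Jchain. The inducing signals had 1 higher under TPM, and 0 lower with the read ratio implied by the deposited p-values; the cause of the last was not tested. That ratio could not be computed for Trf, whose p-value is listed as 0. Depth limits Defb1, S100a8, Lyz2 and Pigr, with 35 to 80 reads each in Ctrl.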

Other observations

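Genes within 500 kb of each member, a choice made after values were seen, were mostly near a ratio of 1. They were counted by 1.5-fold alone, which 2.47% of all measured genes met as higher and 3.15% as lower. Around Trf, 6 measured genes had log2 ratios from -0.17 to 0.08 and 0 were past 1.5-fold. Srprb, a signal recognition particle receptor gene, was at 16.77 and 16.82 FPKM, and the prostaglandin transporter gene Slco2a1 at 67.53 and 70.6 FPKM. Around Defb1, 5 measured genes had 0 past 1.5-fold. Near Ltf lies Ccrl2, an atypical chemoattractant receptor gene, at 9.45 and 19.04 FPKM, a log2 ratio of 0.97 (0.77 to 1.25). It was the only 1 of 10 measured neighbours of Ltf counted as higher, and 0 were lower. Around Lcn2, 28 measured genes had 0 higher and 2 lower. Higher neighbours were 2 of 12 around Wfdc18, 1 of 18 around Slpi and 1 of 21 around S100a8, with 0 lower in each. Around Pigr and Lyz2, 0 were past 1.5-fold. Among weakly expressed neighbours of Defb1 under the minimum level, Fam90a1a was at 0.13 and 1.44 FPKM, and Defb15, another beta-defensin gene, had 0 reads in Ctrl and was at 1.17 FPKM in CKO.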
